A study of Mus musculus with 5 samples.

Results

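Histone genes that are transcribed for DNA replication were examined in the ventricles of embryonic mouse hearts after maternal caffeine. They were taken as the rows of the RefSeq gene table whose symbol begins with Hist1h, Hist2h, Hist3h or Hist4h. This gave 67 of 18307 genes, made up of 6 H1, 17 H2A, 19 H2B, 12 H3 and 13 H4 genes. By position, 53 lay on chromosome 13, 10 on chromosome 3, 3 on chromosome 11 and 1 on chromosome 6. Both groups were CD-1 embryos, an outbred strain, at embryonic day (E) 10.5. In the caffeine group (3 libraries) the dams had received caffeine at 20 mg/kg each day between E6.5 and E9.5, and in the vehicle group (2 libraries) they had received 0.9% NaCl on the same days. Each library was made from pooled ventricles of embryos that shared dams, so the spread within a group is between pools. Ventricle tissue holds several cell types, and in such bulk RNA fewer cells of a type and less RNA per cell cannot be told apart.

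Histones are the proteins around which DNA is wound. H2A, H2B, H3 and H4 form the core of the nucleosome, and H1, the linker histone, binds the DNA between cores. The replication-dependent genes occur in clusters of many near-identical copies and are transcribed mainly in S phase, when new DNA must be packaged. Their mRNAs usually end not in a poly(A) tail but in a short stem-loop, which the stem-loop binding protein holds and behind which the U7 small nuclear ribonucleoprotein directs cleavage. Some of these genes also give longer transcripts that pass the stem-loop and are polyadenylated downstream. The library kit named in the labels is one whose standard protocol selects RNA with poly(A) tails, although the labels do not state the selection, so most histone mRNA is of the kind that such a selection leaves behind.

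The stem-loops are shown for 9 genes that the results below turn on, because they mark where the mRNA without a tail ends. Each is printed 5′ to 3′ in the sense of the gene as DNA letters, from GENCODE M21 transcripts on GRCm38 (the sequence of mm10), with the 16 bases of the stem-loop in capitals and the transcript's flanking bases in lower case.
Hist1h1c: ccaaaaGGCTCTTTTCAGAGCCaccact
Hist3h2a: accaaaGGCTCTTTTCAGAGCCacccac
Hist1h2ap: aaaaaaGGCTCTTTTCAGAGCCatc
Hist1h2ao: aaaaaaGGCTCTTTTCAGAGCCatccac
Hist2h3c1: cacaaaGGCTCTTTTCAGAGCCaccaca
Hist1h3c: aaaaaaGGCTCTTTTAAGAGCCacctaa
Hist1h4i: cttaaaGGCCCTTTTTAGGGCCaccaca
Hist1h4d: accaaaGGCCCTTTTCAGGGCCactacc
Hist1h4b: acaaaaGGTCCTTTTCAGGACCactcac

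The stem-loop of Hist1h1c, an H1 gene, lies at chr13:23739512-23739527 on the plus strand, and that of Hist3h2a, an H2A gene, at chr11:58955172-58955187 on the plus strand. For the H2A genes Hist1h2ap and Hist1h2ao it lies at chr13:21833029-21833044 (minus strand) and chr13:21810898-21810913 (plus strand). For the H3 genes Hist2h3c1 and Hist1h3c it lies at chr3:96247327-96247342 (plus strand) and chr13:23745047-23745062 (minus strand). The H4 genes Hist1h4i, Hist1h4d and Hist1h4b carry theirs at chr13:22040966-22040981 (minus strand), chr13:23581950-23581965 (plus strand) and chr13:23757366-23757381 (plus strand). All 9 stand in the 3′ UTR, beginning 24 to 41 bases after the stop codon.

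The letters searched were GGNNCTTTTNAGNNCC on the sense strand of the transcripts. They were found in the transcript models of 44 of the 67 genes (4 H1, 11 H2A, 10 H2B, 8 H3 and 11 H4), against 72 of 21877 protein-coding genes in all, or 0.329%. Among the 28 other genes with a match was H2afx, the H2A.X variant. The sequence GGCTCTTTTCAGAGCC was the commonest and stood in 26 members, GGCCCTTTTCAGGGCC in 7 and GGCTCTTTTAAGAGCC in 6. Of the rest, 2 members had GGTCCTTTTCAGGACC, 2 had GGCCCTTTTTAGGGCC and 1 had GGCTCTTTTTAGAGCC. The stem differed by family. All 11 H4 stem-loops began GGCCC or GGTCC, and the 33 stem-loops of the H1, H2A, H2B and H3 genes all began GGCTC. A match is a run of letters and no more. In the 23 remaining genes the models used here held none, and several of these models, such as that of Hist1h4k, end with the coding sequence.

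Nearly every histone gene had an estimated count above 0, but many of these values were far below 1 read. Counts above 0 were found for 65, 67 and 65 of the 67 genes in caffeine replicates 1, 2 and 3, against 66 and 67 in vehicle replicates 1 and 2. The deposited counts are estimates and often fractions, the smallest above 0 being 4.23e-37. How reads that match several sequences were divided is not stated. At an estimated count of at least 0.5, which rounds to 1 read or more, 50, 52 and 53 genes remained in the caffeine libraries, against 55 and 52 in the vehicle libraries. At least 10 counts were reached by 16, 18 and 19 genes in the caffeine libraries, against 26 and 17 in the vehicle libraries. The numbers overlapped between the groups at each of these levels. Vehicle replicate 1 had the most genes with at least 0.5 and with at least 10 counts, while vehicle replicate 2 lay among the caffeine libraries.

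**Figure D1:**
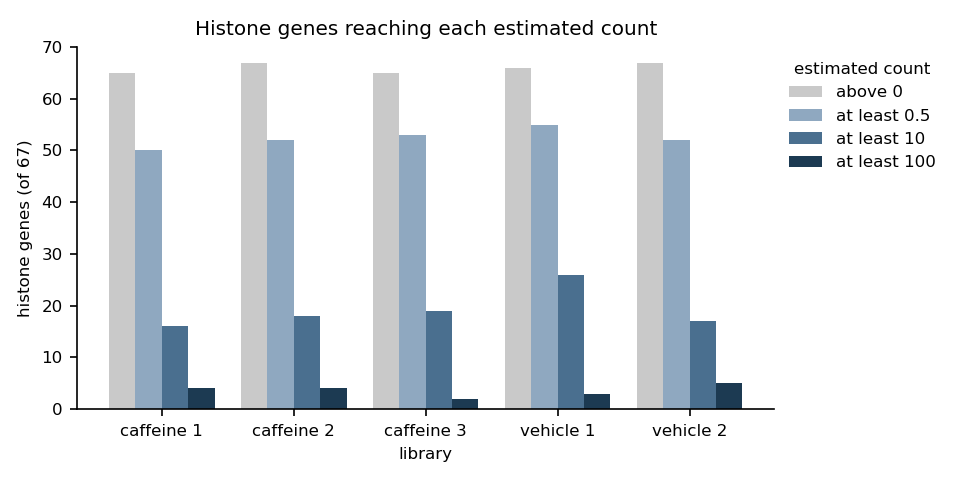
Number of the 67 histone genes (y axis) that reached an estimated count above 0, of at least 0.5, of at least 10 and of at least 100 (bars, light to dark) in each library (x axis). Between 65 and 67 genes were above 0 in every library, while 16 to 26 reached 10 counts.

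In all 5 libraries 64 genes were above 0, but only 34 reached 0.5 and 12 reached 10. Over all genes in the table, 84.6% were above 0 in all libraries and 83.4% reached 0.5 in all, so the gap of 95.5% against 50.7% among the histone genes was far wider. Values above 0 but below 0.5 made up 20.3% of the 335 histone values, against 1.25% of all values in the table. Below 0.5 in every library were Hist1h2ba, the testis H2B, Hist1h2bf, an H2B gene, and Hist3h2bb-ps, an H2B pseudogene. The testis linker histone Hist1h1t had counts of 1, 1 and 2 in the caffeine libraries and 0 and 1 in the vehicle libraries. A count of 0 allows up to 3, so no difference was detectable at this depth. On the Ensembl annotation, which listed 69 such genes, 68, 69 and 68 were above 0 in the caffeine libraries and 68 and 68 in the vehicle libraries. That table added Hist1h2aj and Hist1h2al, both H2A genes.

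The histone genes together made up a very small part of each library. Their estimated counts summed to 1453, 1251 and 1213 in caffeine replicates 1, 2 and 3, against 1619 and 1249 in vehicle replicates 1 and 2, out of library totals between 21713381 and 25048134. That was 0.00544% to 0.00646% of the counts of a library. In CPM, the counts scaled to a common library total with TMM factors, the sums were 60.3, 53.8 and 55.0 in the caffeine libraries, against 66.7 and 56.9 in the vehicle libraries. Vehicle replicate 1 was the highest of the 5, and vehicle replicate 2 lay between the caffeine libraries, so the groups overlapped. The means were 56.4 ± 3.49 CPM with caffeine (SD, n = 3) and 61.8 ± 6.95 CPM with vehicle (SD, n = 2), a difference of -0.13 on the log2 scale, against a pooled SD within groups of 0.118. Leaving out 1 library at a time moved that difference between -0.27, without vehicle replicate 2, and -0.016, without vehicle replicate 1.

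Ribosomal precursor RNA, which also lacks a poly(A) tail, differed between the same libraries. Rn45s, the precursor transcript, stood at 1683, 2724 and 2672 CPM in caffeine replicates 1, 2 and 3, against 8910 and 5303 CPM in vehicle replicates 1 and 2. Both vehicle libraries were above all caffeine libraries (log2 fold change -1.59, SE 0.28, edgeR adjusted p = 0.415). Rmrp, the RNA of RNase MRP, was also lower in every caffeine library. It had 0.0831, 0.215 and 0.590 CPM with caffeine, against 1.81 and 1.05 CPM with vehicle (log2 fold change -2.28, SE 0.58, edgeR adjusted p = 0.517). Vehicle replicate 1 thus had the highest Rn45s, Rmrp and summed histone level of the 5 libraries. The other libraries did not stand in the same order across these RNAs. Caffeine replicate 1 had the lowest Rn45s and Rmrp, but its histone sum of 60.3 CPM lay above the 56.9 CPM of vehicle replicate 2. Of the list of RNAs without a poly(A) tail, 4 of the 9 in the table were tested. Neat1, a nuclear RNA whose long form ends in a triple helix, had 1.99, 1.76 and 2.41 CPM with caffeine, against 0.659 and 0.683 CPM with vehicle (log2 fold change 1.61, SE 0.36, edgeR adjusted p = 0.383). None of the 4 passed an FDR of 0.05. Of all genes tested, 9.27% lay lower with caffeine without overlap and 11.2% higher. Their part in the histone values was not tested.

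A few genes held most of the signal. Hist1h1c took 22.6% of all histone counts, Hist3h2a 17.4%, Hist1h2ap 8.13%, Hist2h2be 7.39% and Hist1h2bc 6.92%, together 62.4%. The 12 genes with the highest means held 80.4%. Per kilobase, with the shorter of the shortest deposited transcript and the longest GENCODE transcript as the length, the order on the RefSeq table changed: Hist1h2ap had the highest mean level at 11.96 CPM per kb, before Hist1h1c at 8.52, Hist1h2ao at 5.43, Hist3h2a at 5.12, Hist1h4i at 4.64 and Hist1h2bc at 3.49 CPM per kb. The ranks of Hist1h2ap and Hist1h2ao rest on the RefSeq assignment of shared reads and on sums over 2 loci each. Per locus Hist1h2ap had 5.98 CPM per kb. Hist1h2ao had 2.71 CPM per kb per locus, below Hist3h2a, Hist1h4i and Hist1h2bc. On the Ensembl annotation Hist1h2ap had 1.55 CPM per kb over both loci, against 12.9 CPM per kb for Hist1h2ao and 7.98 CPM per kb for Hist1h1c.

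**Figure D2:**
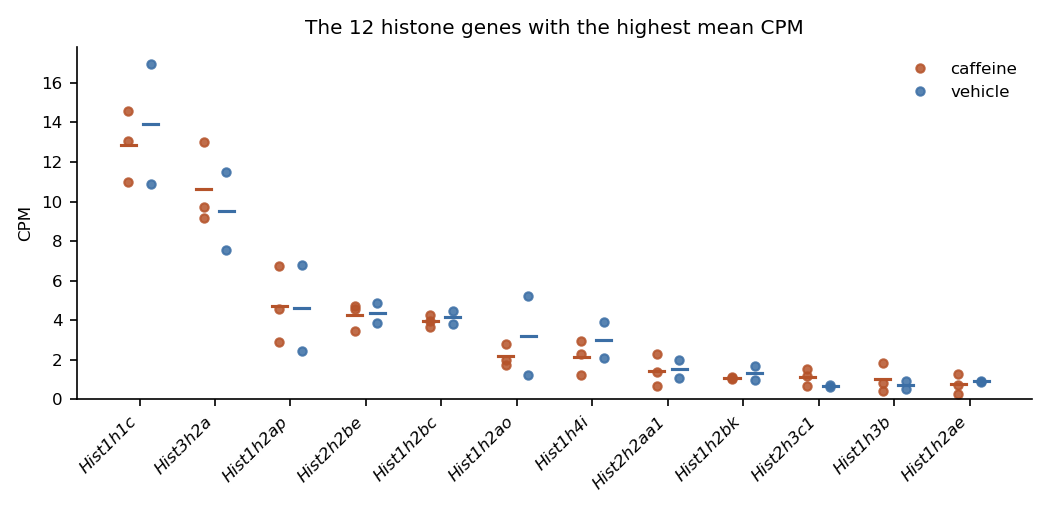
CPM (y axis) of the 12 histone genes with the highest mean CPM (x axis) in each caffeine library (left points) and vehicle library (right points), with group means as bars. Hist1h1c and Hist3h2a stood above the rest in every library, and in none of the 12 were the groups fully apart.

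Hist1h1c was the most abundant H1 gene, with 13.1, 11.0 and 14.6 CPM in caffeine replicates 1, 2 and 3, against 17.0 and 10.9 CPM in vehicle replicates 1 and 2. The highest and the lowest value were both from vehicle, and the caffeine libraries lay between them (log2 fold change -0.12, SE 0.21, edgeR adjusted p = 0.999). Second among the H1 genes was Hist1h1d, which had 5.16, 6.43 and 3.09 counts with caffeine and 12.4 and 7.33 counts with vehicle. It did not pass the low-count filter and was not tested.

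Hist3h2a had 13.0, 9.74 and 9.15 CPM with caffeine, against 11.5 and 7.54 CPM with vehicle. Caffeine replicate 1 was highest and vehicle replicate 2 lowest, and the groups overlapped (log2 fold change 0.16, SE 0.23, edgeR adjusted p = 0.999). Hist1h2ap had 6.77, 4.56 and 2.91 CPM with caffeine, against 2.46 and 6.79 CPM with vehicle. Its 2 vehicle libraries were the lowest and the highest of all 5, a wider spread than the distance between the group means.

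Among the H2B genes, Hist2h2be had 4.73, 4.56 and 3.45 CPM with caffeine, against 3.87 and 4.87 CPM with vehicle. Its reads fell in a transcript that no other transcript shares, since every run of 50 bases in it was unique. Hist1h2bc had 3.96, 4.27 and 3.66 CPM with caffeine, against 4.47 and 3.82 CPM with vehicle. Both genes varied little between libraries and their groups overlapped (log2 fold changes -0.04, SE 0.25, and -0.06, SE 0.23).

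Hist2h3c1 was the highest H3 gene by CPM on RefSeq, with 1.56, 1.18 and 0.703 CPM with caffeine, against 0.719 and 0.647 CPM with vehicle. Caffeine replicates 1 and 2 were above both vehicle libraries and caffeine replicate 3 lay between them. Hist1h3b, also an H3 gene, had 0.430, 0.854 and 1.85 CPM with caffeine, against 0.538 and 0.954 CPM with vehicle. In this gene caffeine replicate 1 was lowest and caffeine replicate 3 highest, with both vehicle libraries between.

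Of the H4 genes, Hist1h4i had 1.22, 2.30 and 2.93 CPM with caffeine, against 3.92 and 2.08 CPM with vehicle. Caffeine replicate 1 was lowest and vehicle replicate 1 highest. Hist1h4d, the next, was far lower, with 0.157, 0.254 and 0.520 CPM with caffeine, against 0.191 and 0.601 CPM with vehicle. Hist4h4, the single gene on chromosome 6, had whole counts of 5, 4 and 4 with caffeine and 4 and 7 with vehicle.

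Summed over each family, reads divided among members of that family stay inside the sum, but reads shared with other families or with genes that are no members do not. The H2B genes summed to 11.9, 12.1 and 10.7 CPM in caffeine replicates 1, 2 and 3, against 13.5 and 12.1 CPM in vehicle replicates 1 and 2. H2B was the 1 family whose groups did not overlap, by a gap between 12.08 CPM in caffeine replicate 2 and 12.15 CPM in vehicle replicate 2. This gap rested on the TMM factors, which ran from 0.97 to 1.02. Over the library totals alone, caffeine replicate 2 (281 of 23002149 counts) stood above vehicle replicate 2 (267 of 22397199 counts). On the Ensembl table the H2B sums were 11.73, 11.72 and 10.5 CPM with caffeine, against 12.8 and 11.9 CPM with vehicle, again without overlap. Of all genes tested singly, 9.27% lay lower with caffeine without overlap.

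The H1 genes summed to 13.7, 11.9 and 15.2 CPM with caffeine and 18.5 and 11.8 CPM with vehicle. The H2A genes summed to 28.0, 21.4 and 19.2 CPM with caffeine and 22.3 and 24.9 CPM with vehicle. In both families the 2 vehicle libraries and the 3 caffeine libraries were mixed. The H3 sums were 3.99, 3.91 and 4.45 CPM with caffeine and 6.18 and 4.19 CPM with vehicle, and the H4 sums 2.78, 4.43 and 5.54 CPM with caffeine and 6.22 and 3.87 CPM with vehicle. Vehicle replicate 1 was the highest library for H1, H2B, H3 and H4, but not for H2A, where caffeine replicate 1 was. The mean of each family was lower with caffeine, with differences from -0.06 (H2A) to -0.31 (H3) on the log2 scale, and the H3 difference was -0.56 on the Ensembl table. Leaving out 1 library turned the sign in 3 families. Without vehicle replicate 1 the difference was 0.20 in H1 and 0.08 in H4, and it was 0.01 in H4 without caffeine replicate 1. In H2A it was 0.06 without caffeine replicate 3 and 0.02 without vehicle replicate 2. H2B and H3 stayed below 0 each time, H3 at -0.03 without vehicle replicate 1 and H2B at -0.08.

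**Figure D3:**
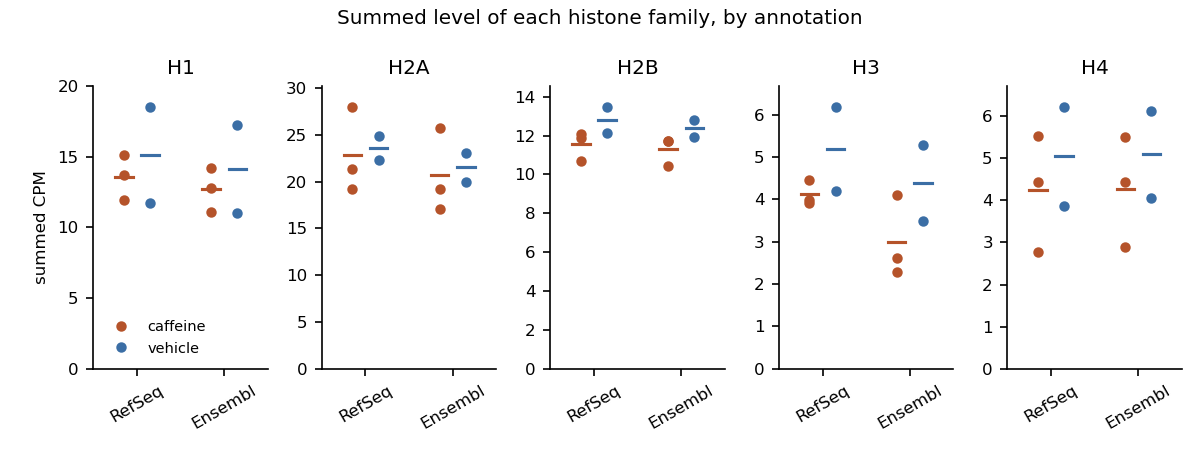
Summed CPM (y axes, each from 0) of the genes of each histone family on the RefSeq and the Ensembl annotation (x axes), with 1 point per library (caffeine left, vehicle right) and group means as bars. With TMM scaling the groups were narrowly apart in the H2B panel on both annotations, and they overlapped in the other families on both.

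In the test across all genes no histone gene passed the threshold. Of the 67 genes 23 passed the low-count filter, and these held between 85.7% and 91.2% of the histone counts of a library. None of the 23 passed an FDR of 0.05 in edgeR's quasi-likelihood test, where 0.00723% of all 13829 genes tested did. None had an unadjusted p under 0.05, against 5.2% of all genes. DESeq2 found 0 of 23 by either measure, but it gave no adjusted p for some of them, Hist1h3c, Hist1h4b and Hist1h2ai included. Limma-voom gave 1 of 23 with an unadjusted p under 0.05, against 5.22% of all genes in that fit, and edgeR on the Ensembl annotation 1 of 24, against 6.19%, with none past the FDR in either. In all 23 genes the caffeine and vehicle libraries overlapped, whereas 20.4% of all genes tested had groups that did not.

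The fold changes of the 23 lay between -1.68 and 0.79 on the log2 scale, 7 above 0 and 16 below. Below 0 were thus 69.6% of them, against 47.0% of all genes, and their median was -0.13, against 0.01 over all genes. Leaving out 1 library turned that median to 0.09 without vehicle replicate 1 and took it to -0.39 without vehicle replicate 2. Their SE ran from 0.21 to 1.34 and was under 0.25 in 4 genes, Hist1h1c, Hist3h2a, Hist2h2be and Hist1h2bc.

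**Figure D4:**
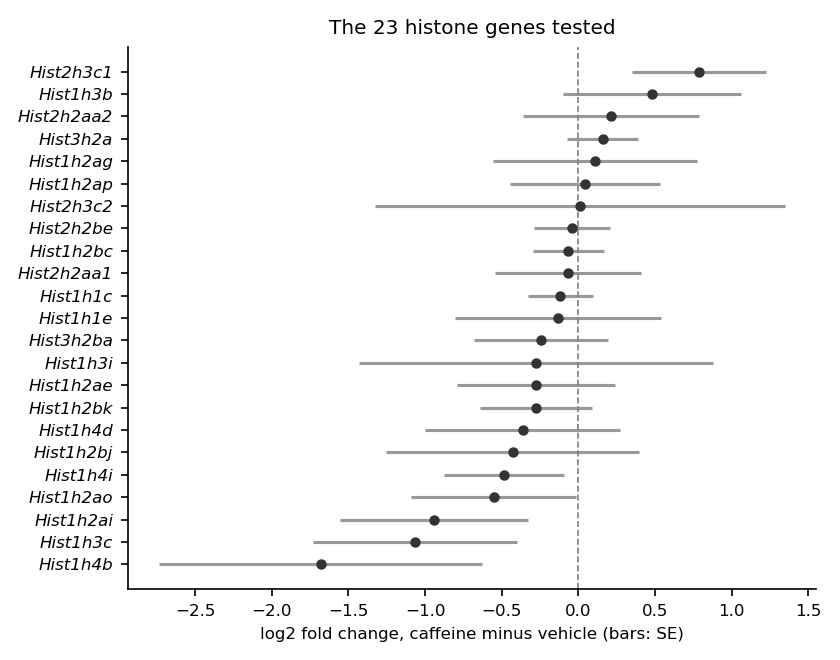
Log2 fold change, caffeine minus vehicle (x axis; bars are the SE), of the 23 histone genes that passed the low-count filter, in order of size (y axis). The bars widen from 0.21 in Hist1h1c to 1.34 in Hist2h3c2, and no gene passed the threshold.

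The smallest p among the members was that of Hist2h3c1 (log2 fold change 0.79, SE 0.44, edgeR unadjusted p = 0.0971, adjusted p = 0.999). Its value differed between the annotations, and no run of 50 bases in its transcript was unique among GENCODE genes. The RefSeq table gave it 37.5, 27.5 and 15.5 counts with caffeine, against 17.5 and 14.2 counts with vehicle. In the Ensembl table it had 0.571, 0.228 and 10.04 counts with caffeine, against 0.142 and 0.202 counts with vehicle. The order of the libraries was different in the 2 annotations, with caffeine replicate 3 the lowest caffeine library in RefSeq and the highest in Ensembl.

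Among the genes with negative fold changes the smallest p values belonged to Hist1h3c, Hist1h4b, Hist1h2ai, Hist1h4i and Hist1h2ao, with unadjusted p of 0.138, 0.147, 0.153, 0.241 and 0.337 in edgeR. Hist1h3c had 0.236, 0.110 and 0.642 CPM with caffeine, against 1.06 and 0.307 CPM with vehicle (log2 fold change -1.06, SE 0.67). Hist1h4b had 9.87 counts in caffeine replicate 2 and under 0.001 in the other 2 caffeine libraries, against 14.4 and 7.72 counts with vehicle (log2 fold change -1.68, SE 1.05). In both genes a caffeine library lay among the vehicle libraries. Hist1h2ai, an H2A gene, had 0.199, 0.757 and 0.530 CPM with caffeine, against 1.54 and 0.406 CPM with vehicle (log2 fold change -0.94, SE 0.61).

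Positive fold changes with the next smallest p were those of Hist1h3b (0.48, SE 0.58), Hist3h2a (0.16, SE 0.23), Hist2h2aa2 (0.21, SE 0.57) and Hist1h2ag (0.11, SE 0.67). Each was smaller than its SE. Hist2h2aa2, an H2A gene, had 1.02, 1.04 and 0.374 CPM with caffeine, against 0.341 and 1.11 CPM with vehicle. Hist1h2ag, another H2A gene, had 0.205, 0.343 and 0.981 CPM with caffeine, against 0.661 and 0.295 CPM with vehicle. The caffeine values of Hist2h2aa2 lay within the range of its vehicle values, and the vehicle values of Hist1h2ag within the range of its caffeine values.

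The 44 genes below the filter did not enter the main test. Their mean counts over the libraries had a median of 3.09 and were at most 7.72. Among them the libraries of the groups were apart in 12, with 10 lower with caffeine and 2 higher. As a share of the 67 genes this is 14.9% lower and 2.99% higher, against 8.73% lower and 10.2% higher over all 18307 genes, filtered or not. One of the 10 is the pseudogene Hist3h2bb-ps, whose values are all below 0.5.

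Hist1h1a, an H1 gene, had whole counts of 2, 3 and 4 with caffeine and 10 and 5 with vehicle. Hist1h1b, also an H1 gene, had 1, 2 and 1 with caffeine and 5 and 3 with vehicle. With Hist1h1d they are the H1 genes among the 10, and these 3 summed to 8.16, 11.4 and 8.09 counts with caffeine, against 27.4 and 15.3 counts with vehicle. All caffeine libraries were below both vehicle libraries, at counts whose error alone is large, and the 3 were picked after their values were seen. Of the other 6 that were lower, Hist1h2ab and Hist1h2ac encode H2A, Hist1h2bl encodes H2B, and Hist1h3d, Hist1h3h and Hist2h3b encode H3. They had at most 5.74 counts with caffeine and 5.54 to 27.4 counts with vehicle. On the Ensembl annotation 8 of the 10 were also lower without overlap. Hist1h2bl and Hist1h3h were not, with 6.89 and 31.3 counts in caffeine replicate 3, against 6.20 and 12.04 counts in vehicle replicate 2.

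The 2 that were higher, Hist1h4a and Hist1h4h, both encode H4. Hist1h4a had 4.86, 8.09 and 6.75 counts with caffeine, against 0.416 and 0.00258 counts with vehicle. Hist1h4k had exactly the same 0.416 and 0.00258 counts in the vehicle libraries, and in the Ensembl table Hist1h4a had under 0.001 counts in caffeine replicates 1 and 2. Without any filter 64 histone genes could be tested, and 7 of them had an unadjusted p under 0.05 in edgeR, against 4.84% of all genes, with none past the FDR. Without vehicle replicate 2 it was 6 of 31, against 8.42% of all genes, again with none past the FDR.

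The genes differed in how much of their transcript is theirs alone. Over the members a median of 45% of the 50-base runs of a transcript occurred in no other transcript. The H1 genes were nearly unique (median 98.9%), followed by H4 (60.5%), H2B (50.3%), H3 (38.1%) and H2A (21.1%). In 5 genes, Hist2h2aa1, Hist2h2aa2, Hist2h2bb, Hist2h3b and Hist2h3c1, no such run was unique, and in 8 genes over 90% were. The other transcripts counted include those of GENCODE genes that are not members. Hist2h2bb shared its runs only with 2 such genes, and its RefSeq counts were whole, 7, 3 and 4 with caffeine and 3 and 3 with vehicle. A unique share of 0 thus need not mean divided reads. In the 14 genes with at least 50% unique runs and 10 or more counts, the RefSeq and Ensembl tables were over 1.5-fold apart in 2 of 45 values (4.44%). In the 24 genes with a smaller unique share they were apart in 47 of 68 values (69.1%). The limit of 50% was chosen after the data were seen.

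The pair Hist1h2ao and Hist1h2ap shows this most plainly. The deposited rows of Hist1h2ap lie wholly inside those of Hist1h2ao at both of their loci on chromosome 13, and under 7% of the 50-base runs of either were unique. RefSeq gave Hist1h2ap 163, 106 and 64.0 counts with caffeine and 59.8 and 149 counts with vehicle, and Ensembl gave it 11.0, 1.95 and 28.5 counts with caffeine and 17.5 and 15.1 counts with vehicle. For Hist1h2ao the RefSeq counts were 68.0, 46.7 and 38.3 with caffeine and 29.8 and 115 with vehicle, and the Ensembl counts 223, 143 and 56.3 with caffeine and 68.7 and 269 with vehicle. The 2 annotations thus named a different gene as the higher of the pair.

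Their sum was nearly the same in both. On RefSeq it was 231, 153 and 102 counts with caffeine, against 89.6 and 264 counts with vehicle, and on Ensembl 234, 145 and 84.8 counts with caffeine, against 86.2 and 284 counts with vehicle. The 2 vehicle libraries were the lowest and the highest of the 5. Their exact Poisson 95% intervals on RefSeq, 72.4 to 111 in vehicle replicate 1 and 233 to 298 in vehicle replicate 2, did not meet. These intervals cover counting error but not the assignment of shared reads, so by themselves they do not show that the pools differed. All H2A genes together had 541 and 547 counts in vehicle replicates 1 and 2. The pair was chosen after its values were seen. For Hist2h2aa1 and Hist2h2aa2, whose rows also overlap, the RefSeq sum was 80.1, 40.3 and 38.6 counts with caffeine and 56.6 and 47.9 counts with vehicle. The Ensembl sum of these 2 was lower in every library, at 33.6, 11.2 and 21.3 counts with caffeine and 21.4 and 23.3 counts with vehicle. The groups were mixed on both, and summing this pair did not bring the annotations together.

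Other traces of shared reads stand in the deposited values. Hist1h2bq and Hist1h2br, H2B genes at the same place, had identical values in every library, 3.13, 1.85 and 3.83 counts with caffeine and 3.79 and 1.21 counts with vehicle. Hist1h2ao, Hist1h2ap, Hist2h2aa1 and Hist1h4n are each listed at 2 loci, and each locus was given the same count in every library. Hist2h2aa2 is also listed at 2 loci, but its counts were 24.3, 16.1 and 4.12 at the first with caffeine and 0.0391 and 24.4 with vehicle, and 0.314, 8.07 and 4.12 at the second with caffeine and 8.23 and 0.0190 with vehicle. Hist1h2be has 2 RefSeq transcripts that differ at their 5′ ends, with 5.78, 4.01 and 2.47 counts on the first with caffeine and 4.11 and 3.82 with vehicle, and 3.46, 2.41 and 1.48 counts on the second with caffeine and 2.46 and 2.29 with vehicle. The values of the 12 H3 genes were mostly fractions, but their sum was whole to within 0.01 in all 5 libraries, 96, 91 and 98 with caffeine and 150 and 92 with vehicle. The same held for the 13 H4 genes, with 67, 103 and 122 with caffeine and 151 and 85 with vehicle. The H1 and H2B sums were whole in 3 of 5 libraries each and the H2A sum in 0. On the Ensembl table the H1 sum was whole in 5, the H4 sum in 3, the H3 sum in 1 and the H2A and H2B sums in 0 libraries.

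The deposited rows differed in how far they reach past the stem-loop. Of the 44 genes with one in their model, 20 rows ended before its last base, 8 ran 0 to 99 bases past it and 16 ran at least 100 bases past it. The 16 long rows held 51.8% of all histone counts, the 20 short ones 21.1%, the 8 between 6.58%, and the 23 genes without a match 20.6%. Hist1h1c ran 840 bases past its stem-loop, Hist3h2a 1487, Hist2h3c1 1167 and Hist1h4i 150 bases. The median level was 0.137 CPM per kb in the 16 long rows, 0.718 in the 8 between and 0.609 in the 20 short ones. In counts, not divided by length, the medians were 6.72, 7.75 and 5.70. Hist4h4 ran 2445 bases past its stem-loop at 0.0730 CPM per kb, and Hist1h2ap, at 11.96 CPM per kb on the RefSeq table, stopped 54 bases before the end of its stem-loop. Levels per kb in long rows are averaged over the bases past the stem-loop, so the medians per kb cannot separate level from row length.

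**Figure D5:**
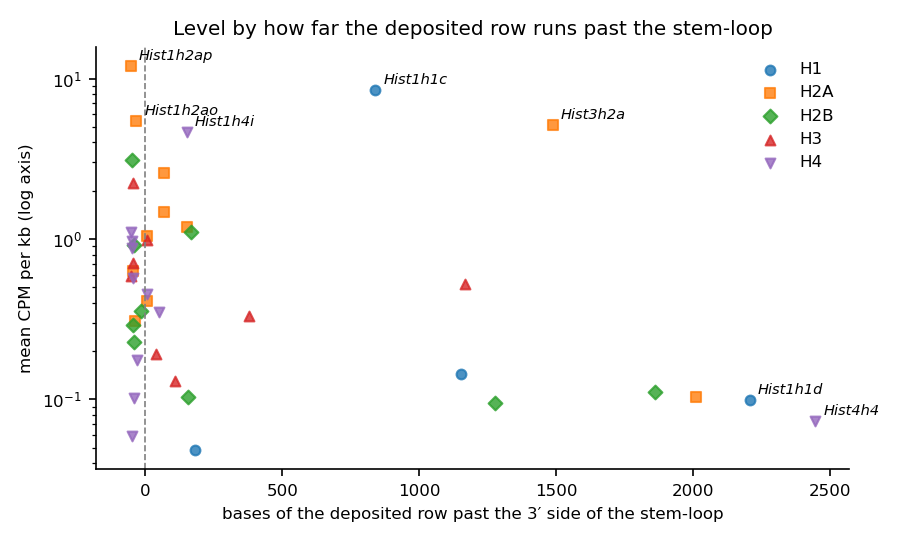
Mean CPM per kb (y axis, log scale) of 43 histone genes against how many bases the deposited row runs past the 3′ side of the stem-loop (x axis, negative where it ends before), with 1 point per gene and symbols by family. Hist1h1c and Hist3h2a combine a high level with 840 and 1487 bases past the stem-loop, while the median of the 16 rows at least 100 bases past it is 0.137 CPM per kb; Hist1h2bf, under 0.0001 CPM per kb, is left out.

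A poly(A) signal, AATAAA or ATTAAA, was searched on the sense strand in the last 40 bases of the GENCODE transcripts. It was found in 17 of the 67 genes (25.4%), against 76.1% of 21877 protein-coding genes. A gene counted if any of its transcripts held the signal. Models of several members, such as Hist1h2ai at 393 bases and Hist1h4k at 312 bases, hold no bases past the stop codon to search. These shares are thus not on equal terms. Those 17 genes held 58.3% of all histone counts, 59.8%, 60.2% and 61.7% in caffeine replicates 1, 2 and 3, against 59.9% and 49.9% in vehicle replicates 1 and 2. Vehicle replicate 2 had the lowest share, and in that library Hist1h2ao and Hist1h2ap, whose models hold no signal there, had their highest sum. By CPM, Hist1h1c, Hist3h2a, Hist2h2be, Hist2h3c1 and Hist1h4i were the highest genes of H1, H2A, H2B, H3 and H4, and all 5 were among the 17. Per kb, Hist1h2ap in H2A (11.96), Hist1h2bc in H2B (3.49) and Hist1h3b in H3 (2.25 CPM per kb), none of them among the 17, stood above the gene named for their family.

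Variant histones, which are made outside S phase as well and mostly have poly(A) tails, were far higher. Per kilobase H2afz, the H2A.Z gene, had a mean of 194 CPM per kb, H3f3a and H3f3b, the H3.3 genes, 129 and 100 CPM per kb, and H1f0, the H1.0 gene, 92.8 CPM per kb. H2afx, whose model holds both a stem-loop and a poly(A) signal, had 134 CPM per kb. The highest replication-dependent gene on RefSeq, at 11.96 CPM per kb, lay below these 5. Of the 12 variants with a length, only H2afj, an H2A variant at 9.54 CPM per kb, and H1foo, the oocyte linker histone at 0.00812 CPM per kb, were lower than it.

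None of the variants passed the test. Of the list of 14, 12 were tested, 5 with positive and 7 with negative fold changes, and their median was -0.04, against 0.01 over all genes. H2afz had 175, 217 and 188 CPM with caffeine, against 247 and 208 CPM with vehicle, with caffeine replicate 2 between the vehicle libraries (log2 fold change -0.23, SE 0.14, edgeR adjusted p = 0.999). H1f0 was lower in every caffeine library, at 188, 182 and 183 CPM, against 211 and 189 CPM with vehicle (log2 fold change -0.12, SE 0.12). Of all genes tested, 9.27% were lower in this way. H2afx (0.04, SE 0.16), H3f3a (-0.16, SE 0.14) and H3f3b (-0.02, SE 0.12) had libraries that overlapped. By p, H2afy2, a macroH2A gene, came first in the list (log2 fold change -0.26, SE 0.13, edgeR adjusted p = 0.986).

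None of the genes that make and process histone mRNA passed it either. All 23 in the table were tested, 11 with positive and 12 with negative fold changes, a median of -0.01 and none past the FDR. Slbp, which encodes the stem-loop binding protein, had 54.0, 63.6 and 51.5 CPM with caffeine, against 56.8 and 56.6 CPM with vehicle (log2 fold change -0.01, SE 0.14). Npat, a coactivator of histone gene transcription, had 51.0, 55.4 and 44.9 CPM with caffeine, against 42.1 and 58.0 CPM with vehicle (0.01, SE 0.16). Lsm10 and Lsm11, subunits of the U7 particle, differed by 0.15 (SE 0.18) and 0.06 (SE 0.14). Libraries of both groups overlapped in these 4 genes. The smallest p values were those of Cpsf3, the endonuclease that cuts the mRNA (-0.22, SE 0.12), Hinfp, a factor of H4 promoters (0.34, SE 0.20), and Cpsf2, a partner of Cpsf3 (-0.22, SE 0.13).

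Of the histone chaperones, which carry new histones to DNA, all 19 in the table were tested. Fold changes were positive in 7 and negative in 12, with a median of -0.06. Nasp, a chaperone of H1 and of H3 and H4, had 218, 263 and 227 CPM with caffeine, against 289 and 324 CPM with vehicle (log2 fold change -0.38, SE 0.13, edgeR adjusted p = 0.851). Supt16, a subunit of the FACT complex, had 174, 224 and 207 CPM with caffeine, against 247 and 265 CPM with vehicle (-0.35, SE 0.13, edgeR adjusted p = 0.924). In both genes every caffeine library was below both vehicle libraries, and neither passed the threshold. Chaf1b, Nap1l1, Ssrp1, Anp32e, Rbbp4 and Rbbp7 were also lower in this way, and the rest of the list overlapped. Of all genes tested, 9.27% were lower in this way. Nap1l1, a chaperone of H2A and H2B, differed by -0.26 (SE 0.12).

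Markers of S phase, when these histone genes are transcribed, were all tested: of 50 genes 17 had positive and 33 negative fold changes, with a median of -0.04. Pcna, the sliding clamp, had 157, 183 and 172 CPM with caffeine, against 189 and 176 CPM with vehicle (log2 fold change -0.10, SE 0.13), with overlap. Rfc4 (-0.36, SE 0.15) and Rfc1 (-0.23, SE 0.12), whose products load the clamp, were among the 3 genes of this list with the smallest p. Of 18 genes of G2 and mitosis 3 had positive and 15 negative fold changes, with a median of -0.07. Mki67, a proliferation marker, had 281, 298 and 320 CPM with caffeine, against 322 and 443 CPM with vehicle (-0.35, SE 0.15, edgeR adjusted p = 0.941). Cenpf and Cenpe, kinetochore proteins, differed by -0.52 (SE 0.17) and -0.51 (SE 0.17). None of these 68 genes passed an FDR of 0.05, and their part in the histone values was not tested.

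Markers of the cell types in the sample were read beside these values. All 10 cardiomyocyte markers were tested, and they summed to 34629, 35288 and 34695 CPM with caffeine, against 41789 and 38748 CPM with vehicle, lower in every caffeine library, with 2 positive and 8 negative fold changes. The 10 primitive erythroid markers summed to 8511, 6527 and 10292 CPM with caffeine, against 10752 and 6198 CPM with vehicle, highest in vehicle replicate 1 and lowest in vehicle replicate 2. The 9 endothelial markers summed to 1367 to 1578 CPM with caffeine and 1517 to 1641 CPM with vehicle. Hepatic endoderm markers were low, at 7.63 to 39.4 CPM with caffeine and 8.03 to 120 CPM with vehicle, and the 5 epicardial markers summed to 337 to 490 CPM with caffeine and 337 to 382 CPM with vehicle. Fold changes were positive in 9 of the 10 erythroid and all 5 epicardial markers, and negative in 8 of the 9 endothelial markers. All 7 hepatic markers tested had negative fold changes. No marker passed an FDR of 0.05. The part of cell composition in the histone values was not tested.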

How the data were processed

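RNA of 5 libraries (3 caffeine, 2 vehicle) was analysed. Per the file headers, the authors deposited estimated counts per gene and per transcript on RefSeq and Ensembl annotations; TopHat, Partek and the builds mm10 and GRCm38 are named in the submitters' processing notes. Not given in the sources used here are the read length, whether strand was used and how reads matching several sequences were divided. Rounded counts were fitted for all RefSeq genes with edgeR 4.0.16 (filterByExpr, TMM, quasi-likelihood test, robust, two-sided; R 4.3.3), adjusted by Benjamini-Hochberg over all 13829 genes tested. Each SE was obtained by dividing the log2 fold change by the root of the F statistic. CPM used unrounded counts and TMM-scaled totals (factors 0.97 to 1.02). Sequences came from GENCODE M21. Intervals cover counting error only. Fits were tested on simulated data.

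The members and gene lists were chosen with earlier results of these data known. Named were the 2 highest genes of each family by CPM, up to 5 higher and 5 lower with the smallest p, the testis-type genes (Hist1h2aa was not analysed here), genes with several transcripts, 13 fixed genes and up to 3 genes of each list with the smallest p. A gene that this rule takes is not reported here. Alternatives were other scalings and filters, DESeq2 1.42.0, limma-voom (limma 3.58.1), the Ensembl table, no robust estimation, a replicate block and leaving out each library; for the family sums the last and the Ensembl table were added after seeing the data.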

Additional observations from a re-analysis of the deposited data

How the results depend on the processing

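No histone gene passed an FDR of 0.05 under any of the alternatives, at an FDR of 0.1, or without any 1 library; the adjusted p of the named genes over these alternatives ran from 0.382 upward. The median log2 fold change of -0.13 was 0.055 with a filter of 5 CPM in 2 libraries, which left 3 genes, and ran from -0.39 (without vehicle replicate 2) to 0.090 (without vehicle replicate 1) when 1 library was left out. The difference in log2 summed CPM of -0.13 ran from -0.27 to -0.016 in the same way. Requiring a count of at least 0.5 in every library left 34 genes in place of 64. Of 202 values of named genes under alternatives 180 kept their sign and 22 did not; the causes were not tested. On the Ensembl table Hist1h2ap was at -0.17. Without scaling beyond the total Hist2h2be was at 0.021, and with limma-voom Hist1h2ag was at -0.060.

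With 1 library left out, the log2 fold changes ran from -0.43 to 0.24 in Hist1h1c, -0.14 to 0.49 in Hist3h2a, -0.51 to 0.92 in Hist1h2ap, -0.20 to 0.11 in Hist2h2be, -0.19 to 0.048 in Hist1h2bc, -0.22 to 0.92 in Hist1h3b, -0.89 to 0.037 in Hist1h4i, -0.95 to 0.53 in Hist1h4d, -0.42 to 1.27 in Hist2h2aa2, -0.39 to 0.89 in Hist1h2ag, -1.69 to 0.065 in Hist1h3c, -1.61 to 0.30 in Hist1h2ai and -1.26 to 0.80 in Hist1h2ao.

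The labels give replicate numbers but state no pairing. Deviations from the group means correlated at -0.0225 between caffeine 1 and vehicle 1 and at 0.131 between caffeine 2 and vehicle 2. With 2 vehicle libraries the deviations of one mirror those of the other, so these correlations cannot decide whether same-numbered libraries belong together. With the replicate block, 0 histone genes passed the FDR (3 of 23 had an unadjusted p under 0.05, against 5.84% of all genes) and their median was -0.18, while 52 of all genes passed in place of 1; Hist2h2be was then at 0.10, Hist1h3b at -0.24 and Hist1h2ag at -0.72. Caffeine replicate 3 has no vehicle library of its number, so the block fit compared the groups only within replicates 1 and 2. Little was then left to estimate the error. Depth limits the single genes: 44 of 67 stood below the filter.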
